A study of Arabidopsis thaliana with 9 samples.

Results

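Jasmonate, the lipid hormone that leaves make when wounded or attacked by fungi that feed on dead tissue, is built from linolenic acid in a short enzyme chain, and 10 genes of that chain are described here. They were taken by locus ID: the lipoxygenase genes LOX2, LOX3, LOX4 and LOX6, the allene oxide synthase gene AOS, the allene oxide cyclase genes AOC1, AOC2 and AOC3, the OPDA reductase gene OPR3 and the conjugating enzyme gene JAR1. All 10 were found among the 33610 listed genes, and all 10 passed the filter on low counts, with 125 to 64373 reads per library. The choice was by locus ID and not by measured values, but it was made with earlier results of these data known.

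Polyadenylated RNA was sequenced from rosette leaves in 3 groups of 3 libraries, which the labels call biological replicates without giving the number of plants in each. Alternaria leaves came from plants sprayed with spores of the fungus Alternaria brassicicola, strain MUCL 20297, at 1000000 per ml in 0.01% Silwet L-77, a wetting agent, and were taken 3 days later. Mock leaves came from mock-treated plants whose liquid and harvest time the labels do not give, and untreated leaves came from untreated plants, whose harvest time is not given either. All were of the Col-0 ecotype, with no transgene or mutation in the labels, and were kept on soil under short days (8 h light, 22 °C) until 5 to 6 weeks old.

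In the plastid, lipoxygenases oxygenate linolenic acid, AOS turns the product into an unstable allene oxide, and allene oxide cyclases close the ring to give OPDA. OPDA moves to the peroxisome, where OPR3 reduces it and rounds of beta-oxidation shorten its side chain to jasmonic acid. JAR1 then joins jasmonic acid to isoleucine in the cytosol, and this conjugate is the form that the receptor COI1 binds. Most synthesis genes are themselves known to be switched on by jasmonate.

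Libraries held 22713147 to 36061529 reads in genes, and a count of 0 allows at most 3 counts, or 0.0832 to 0.139 CPM (counts scaled to a library of 1000000 reads), for counting error only. Leaf markers summed to 19300 to 20600 CPM in Alternaria libraries, 31200 to 34100 CPM in mock libraries and 34100 to 36100 CPM in untreated libraries, so the labelled tissue was present in each. All 5 leaf markers were lower in Alternaria than in mock leaves. In mock against untreated leaves 3 of them were higher and 1 was lower (15.1% and 14.1% of all genes). Epidermis markers summed to 631 to 681 CPM in Alternaria, 929 to 1010 CPM in mock and 1240 to 1410 CPM in untreated libraries, and the part of these shifts in the results was not tested. The 5 root markers summed to at most 2.01 CPM and the 5 flower markers to at most 6.58 CPM in any library. Within its group, untreated replicate 1 resembled the others least across all genes (mean r of 0.9837, with 0.9866 and 0.9865 for replicates 2 and 3, a description across genes), and results that turn on it are given without it.

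The 3 cyclase genes stand side by side on the plus strand of chromosome 3. AOC1 and AOC2 passed the test in mock against untreated leaves. AOC3 lay near the threshold and did not pass (edgeR adjusted p = 0.0747). The sequence upstream of each is shown for comparison. Each run is the 250 bases before the annotated start in the RefSeq annotation of TAIR10.1, at chr3:9403529-9403778 for AOC1, chr3:9406419-9406668 for AOC2 and chr3:9408910-9409159 for AOC3, and capitals mark the longest run shared by AOC1 and AOC2.
AOC1: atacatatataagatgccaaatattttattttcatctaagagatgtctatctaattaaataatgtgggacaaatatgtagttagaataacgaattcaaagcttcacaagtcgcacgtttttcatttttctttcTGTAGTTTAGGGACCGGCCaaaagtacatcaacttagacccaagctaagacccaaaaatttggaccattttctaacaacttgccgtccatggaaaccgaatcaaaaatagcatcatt
AOC2: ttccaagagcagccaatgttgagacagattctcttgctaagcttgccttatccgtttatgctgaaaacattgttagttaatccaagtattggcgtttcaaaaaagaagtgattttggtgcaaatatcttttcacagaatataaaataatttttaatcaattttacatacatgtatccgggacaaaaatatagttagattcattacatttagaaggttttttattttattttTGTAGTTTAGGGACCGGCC
AOC3: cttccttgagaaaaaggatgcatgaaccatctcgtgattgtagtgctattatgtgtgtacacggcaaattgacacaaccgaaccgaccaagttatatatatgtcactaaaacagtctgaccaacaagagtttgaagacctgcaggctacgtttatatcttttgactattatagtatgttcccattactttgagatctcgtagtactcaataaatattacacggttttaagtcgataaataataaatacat
The shared run is 19 bases long and was picked as the longest common to AOC1 and AOC2, so its presence in both was given. Of 27431 upstream regions of protein-coding genes, the run occurred in 2, those of AOC1 and AOC2. It ends 99 bases before the annotated start of AOC1 and directly at that of AOC2, where the window ends, so a longer match was not looked for. The longest runs that AOC3 shared with them were 8 bases (AOC1) and 9 bases (AOC2). A link between the 19 bases and the change in mock leaves was not tested.

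Upstream regions of 250 bases were also searched on both strands for letters that jasmonate- and defence-related factors are known to bind. CACGTG, the G-box bound by MYC factors, was in 1 member (AOS) and in 6.5% of all 27431 regions. Its variants AACGTG and CACATG were in 2 members (LOX4 and AOC1) against 7.5% of regions and in 3 members (LOX2, LOX3 and JAR1) against 11.1%. The W-box letters bound by WRKY factors were in 2 members as TTGACC (LOX2 and LOX6, against 12.2% of regions) and in 3 members as TTGACT (LOX3, AOS and AOC3, against 19.1%). GCCGCC, the GCC box of ethylene response factors, was in 0 members and in 1.9% of regions. AOC2 and OPR3 held none of these letters. A match is a description of letters and no evidence of binding, and a link between letters and response patterns was not tested. The last 100 bases before the start are shown for LOX2 (chr3:16525145-16525244, plus strand), AOS (chr5:17099596-17099695, minus strand) and LOX4 (chr1:27308413-27308512, plus strand), which stand for 3 different response patterns below, with matches in capitals.
LOX2: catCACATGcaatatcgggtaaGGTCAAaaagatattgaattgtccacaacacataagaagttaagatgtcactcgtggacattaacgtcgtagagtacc
AOS: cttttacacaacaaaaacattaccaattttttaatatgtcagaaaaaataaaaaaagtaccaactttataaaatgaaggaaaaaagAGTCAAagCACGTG
LOX4: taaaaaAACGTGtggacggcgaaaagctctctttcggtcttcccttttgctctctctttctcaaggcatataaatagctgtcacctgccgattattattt

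Alternaria and mock leaves were compared first, which sets the fungus apart from its mock treatment as far as harvest times and the liquid matched. LOX4 and AOC3 rose most, LOX2, LOX3, AOC1, AOC2 and OPR3 rose too, and LOX6, AOS and JAR1 did not pass the test. In edgeR's quasi-likelihood test 7 of 10 members were higher in Alternaria leaves and 0 were lower, where 29.5% of the 22019 genes tested were higher and 26.1% lower (55.6% in either direction). DESeq2 gave 7 and 0 members as well, with 6282 genes higher and 5648 lower over all genes. The median log2 change was 0.97 over the 10 members and -0.02 over all genes. Libraries of both groups did not overlap, with Alternaria above mock, for 9 of 10 members, where groups did not overlap in either direction for 63.3% of genes. Fewer cells of a type and less RNA per cell cannot be told apart in these whole leaves.

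In Alternaria against untreated leaves, a comparison of fungus and treatment together, 9 of 10 members were higher in Alternaria leaves and 0 lower, against 33.1% and 31.8% of all genes, or 64.9% in either direction (edgeR's quasi-likelihood test). The counts were the same in DESeq2. JAR1 was the exception. The median log2 change was 2.04 over the members and -0.04 over all genes, and 9 members did not overlap between groups, against 68.6% of genes.

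The mock treatment itself was set against no treatment, and a difference in harvest time between them cannot be told apart from it. Here 5 members were higher in mock leaves (LOX2, AOS, AOC1, AOC2 and OPR3) and 2 were lower (LOX3 and JAR1), against 15.1% and 14.1% of all genes (29.3% in either direction) in edgeR's quasi-likelihood test. AOC3, not called here, passed with DESeq2 and in the authors' deposited table, as given below. The median log2 change was 0.71 over the members and -0.01 over all genes, and 7 of 10 members did not overlap between groups, against 44.7% of genes. The count of members called in this comparison was 5 to 8 when each library was left out in turn, and that of all genes was 4343 to 6644. These 3 comparisons share their libraries, so they are not independent of each other.

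**Figure D1:**
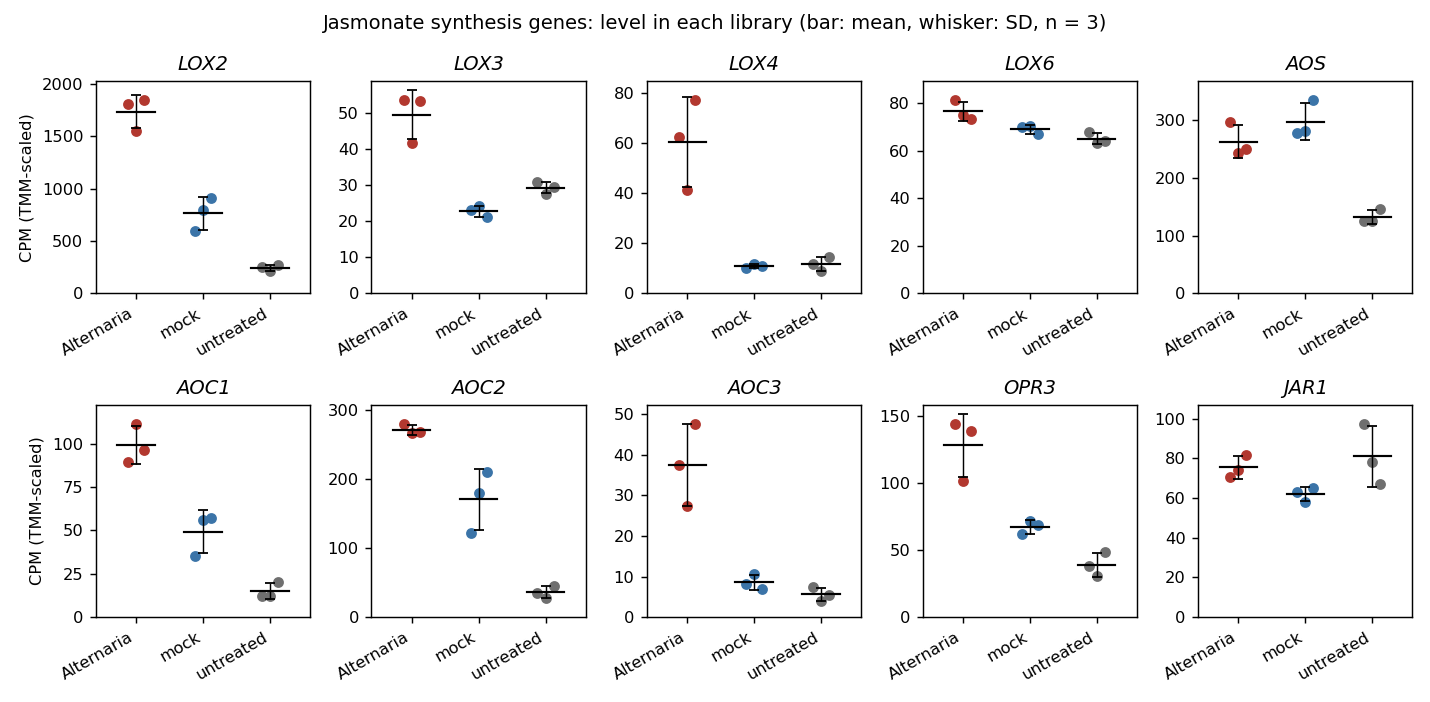
Level of each of the 10 genes in every library, in TMM-scaled CPM on linear axes that start at 0, with points for libraries, a bar for the mean and whiskers for the SD (n = 3 per group). LOX2, AOC1, AOC2 and OPR3 climb over both steps, LOX3, LOX4 and AOC3 stand high in Alternaria leaves, and the AOS points of Alternaria and mock leaves overlap.

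Lipoxygenases open the pathway, and LOX2, the main lipoxygenase of the leaf blade, was by far the most abundant of them. LOX2 (AT3G45140, chr3:16525245-16529352) measured 1809, 1551 and 1842 CPM in Alternaria libraries, 593, 795 and 907 CPM in mock libraries and 250, 215 and 268 CPM in untreated libraries. No library of one group reached into another, and each group lay above the next by more than its spread. LOX2 was 2.27-fold higher in Alternaria than in mock leaves (log2 change 1.18 ± 0.14, SE; edgeR, Benjamini-Hochberg adjusted p = 1.15e-05) and 3.13-fold higher in mock than in untreated leaves (1.65 ± 0.14, adjusted p = 7.52e-06). Between Alternaria and untreated leaves the difference was 7.10-fold (2.83 ± 0.15, edgeR adjusted p = 7.89e-09). By mean CPM, LOX2 ranked 34 in Alternaria, 136 in mock and 557 in untreated leaves among the genes tested.

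LOX3 and LOX4, a close pair that is needed for male fertility and takes part in wound signalling in the leaf's vessels, stood far below LOX2. LOX4 (AT1G72520, chr1:27308513-27312756) had 62.2, 41.3 and 76.9 CPM in Alternaria libraries, 10.1, 11.6 and 11.1 CPM in mock libraries and 11.7, 9.01 and 14.6 CPM in untreated libraries. Mock libraries lay inside the untreated range, and every Alternaria library lay well above both. The change was 2.46 ± 0.21 for Alternaria against mock (5.51-fold, edgeR adjusted p = 7.13e-07) and -0.10 ± 0.22 for mock against untreated, with a 95% interval of -0.57 to 0.37 (edgeR adjusted p = 0.761).

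LOX3 (AT1G17420, chr1:5977323-5981521) measured 53.6, 41.9 and 53.5 CPM in Alternaria libraries, 23.1, 24.2 and 21.2 CPM in mock libraries and 30.9, 27.7 and 29.6 CPM in untreated libraries. It was thus lowest in mock leaves, without overlap on either side. LOX3 rose 2.18-fold in Alternaria against mock leaves (1.12 ± 0.10, edgeR adjusted p = 1.08e-06) and fell in mock against untreated leaves (-0.36 ± 0.10, adjusted p = 0.0178). That fall did not pass without mock replicate 3 (edgeR adjusted p = 0.0824).

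LOX6 (AT1G67560, chr1:25319804-25324581), known from roots and from early jasmonate production along the xylem, was the steadiest member. It had 81.1, 74.8 and 73.4 CPM in Alternaria libraries, 69.8, 70.3 and 66.9 CPM in mock libraries and 67.7, 63.3 and 64.0 CPM in untreated libraries. The groups lay within a narrow band, with Alternaria libraries above all others. Its change of 0.23 ± 0.07 against untreated leaves passed (edgeR adjusted p = 0.00835), while upper-quartile scaling, which moves the median of all genes by -0.196 there, left 0.04 (adjusted p = 0.615). Against mock leaves LOX6 measured 0.15 ± 0.07 (edgeR adjusted p = 0.0788). The 5 xylem markers summed to 39.8 to 54.2 CPM in Alternaria, 59.5 to 79.2 CPM in mock and 94.4 to 122 CPM in untreated libraries, none of them at 0, and the 5 phloem markers to 257 to 275 CPM in Alternaria, 186 to 215 CPM in mock and 255 to 300 CPM in untreated libraries. Single phloem markers moved apart, with 3 higher and 1 lower in Alternaria than in mock leaves (29.5% and 26.1% of all genes). Against untreated leaves 2 were higher and 2 lower (33.1% and 31.8% of all genes), so the phloem sum is no shared shift. The part of these xylem and phloem values in the lipoxygenase values was not tested.

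Divided by exon length, so that genes can be compared, LOX2 made up 90.1% ± 0.432 of the lipoxygenase level of the 4 members in Alternaria leaves, 87.8% ± 2.48 in mock leaves and 69.5% ± 1.49 in untreated leaves (mean ± SD, n = 3). LOX6 held 3.89% ± 0.388, 7.94% ± 1.67 and 18.1% ± 1.52 of that level in Alternaria, mock and untreated leaves, although its own level hardly moved. For the LOX2 share, both mock and Alternaria libraries lay above all untreated libraries, with an exact two-sided permutation p of 0.1 for either comparison, the smallest that 3 against 3 libraries allow. Alternaria and mock libraries overlapped (exact permutation p = 0.3). The summed level of the 4 genes was 592 ± 57.0 CPM per kb of exon in Alternaria leaves, 267 ± 48.5 in mock leaves and 108 ± 9.84 in untreated leaves.

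**Figure D2:**
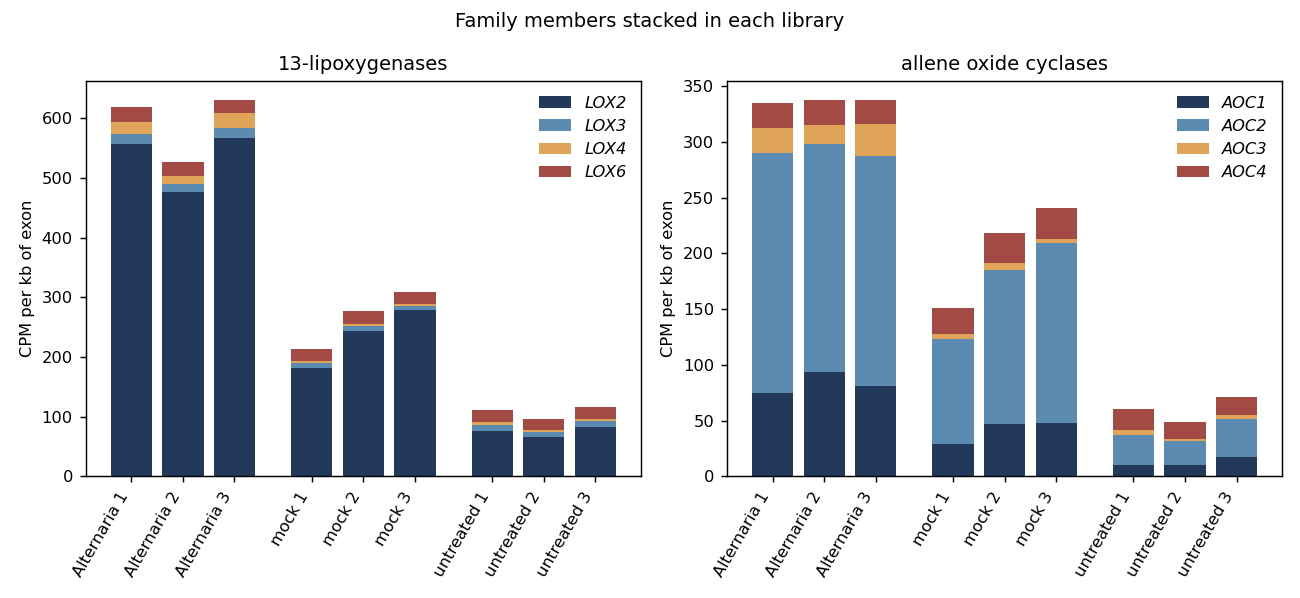
Level per kb of exon, stacked by gene, of the 4 lipoxygenases and the 4 allene oxide cyclases in each library (CPM per kb, TMM-scaled). LOX2 fills most of each lipoxygenase bar (90.1%, 87.8% and 69.5% in Alternaria, mock and untreated leaves) and AOC2 most of each cyclase bar in Alternaria and mock leaves (62.0% and 64.1%).

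AOS (AT5G42650, chr5:17097564-17099595) encodes the cytochrome P450 that commits the lipoxygenase product to jasmonate, and is the only gene for this step. Its libraries measured 296, 243 and 249 CPM in Alternaria leaves, 277, 280 and 334 CPM in mock leaves and 125, 125 and 146 CPM in untreated leaves. Alternaria and mock libraries overlapped and both lay above all untreated libraries. AOS was 2.26-fold higher in mock than in untreated leaves (1.17 ± 0.10, edgeR adjusted p = 9.61e-06) and 2.00-fold higher in Alternaria than in untreated leaves (1.00 ± 0.10, adjusted p = 2.71e-06). Alternaria against mock gave -0.18 ± 0.10, with a 95% interval of -0.40 to 0.04 (edgeR adjusted p = 0.159), so a further rise beyond 0.04 on the log2 scale lies outside the interval. Upper-quartile scaling, which moves the median of all genes by -0.175 in this comparison, gave -0.35 (adjusted p = 0.0126), and leaving out Alternaria replicate 1 gave -0.27 (adjusted p = 0.0441).

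Allene oxide cyclases set the natural form of OPDA, and AOC2 was the most abundant of the 3 in every group. AOC2 (AT3G25770, chr3:9406669-9408071) had 280, 266 and 268 CPM in Alternaria libraries, 122, 180 and 210 CPM in mock libraries and 35.0, 27.5 and 45.02 CPM in untreated libraries. The 3 groups were clear of each other, and mock libraries were spread most. AOC2 rose 4.76-fold in mock against untreated leaves (2.25 ± 0.19, edgeR adjusted p = 7.66e-06), which placed it above 99.7% of all genes by log2 change. The authors' deposited table gave a smaller rise in mock against untreated leaves (log2 change 1.87 ± 0.25). In Alternaria against mock leaves AOC2 rose 1.59-fold (0.67 ± 0.18, edgeR adjusted p = 0.00703).

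AOC1 (AT3G25760, chr3:9403779-9405338) ran at a lower level in the same order. It measured 89.6, 111 and 96.6 CPM in Alternaria libraries, 35.1, 55.7 and 56.9 CPM in mock libraries and 12.3, 12.3 and 20.3 CPM in untreated libraries. AOC1 rose 2.01-fold in Alternaria against mock leaves (1.01 ± 0.20, edgeR adjusted p = 0.000722) and 3.30-fold in mock against untreated leaves (1.72 ± 0.21, adjusted p = 0.000116). For mock against untreated the authors' deposited table gave a smaller rise (log2 change 1.38 ± 0.26).

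AOC3 (AT3G25780, chr3:9409160-9411090) was the least abundant of the 3. Its libraries held 37.4, 27.4 and 47.6 CPM in Alternaria leaves, 8.26, 10.6 and 6.94 CPM in mock leaves and 7.38, 4.10 and 5.44 CPM in untreated leaves. Mock and untreated libraries overlapped, and Alternaria libraries lay far above both. AOC3 rose 4.37-fold in Alternaria against mock leaves (2.13 ± 0.22, edgeR adjusted p = 4.17e-06). For mock against untreated the change was 0.62 ± 0.25 (edgeR adjusted p = 0.0747), a value near the threshold that passed with DESeq2 (0.0256), with no filter on low counts (0.0338), in the fit of those 6 libraries alone (0.0446), without untreated replicate 1 (0.0232) and without Alternaria replicate 2 (0.0406) or 3 (0.0496). In the authors' deposited table it was also higher in mock leaves (log2 change 0.57, adjusted p = 0.0145).

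Per kb of exon, with the fourth cyclase gene AOC4 counted in, AOC2 held 62.0% ± 1.96 of the cyclase level in Alternaria leaves, 64.1% ± 2.69 in mock leaves and 45.4% ± 2.97 in untreated leaves. AOC3 held 6.71% ± 1.803, 2.66% ± 0.812 and 5.65% ± 1.45 in Alternaria, mock and untreated leaves, and its share in Alternaria libraries did not overlap that in mock libraries (exact two-sided permutation p = 0.1, the smallest possible). AOC4 held 6.53% ± 0.265 in Alternaria leaves, 12.9% ± 2.06 in mock leaves and 28.4% ± 4.93 in untreated leaves. The 4 genes summed to 337 ± 1.71 CPM per kb in Alternaria leaves, against 203 ± 46.4 in mock leaves and 60.3 ± 11.004 in untreated leaves.

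Close copies can exchange reads, so the coding sequences were compared. AOC1 and AOC2 were identical at 90.3% of aligned bases and shared no window of 50 bases, while AOC1 and AOC3 were identical at 82.4% and shared 24 such windows (3.4% of those of AOC1). AOC2 and AOC3 were identical at 82.2% and shared 1 window. The longest identical stretch, 73 bases at coding positions 329 to 401 of AOC1 and 341 to 413 of AOC3, is shown with the aligned stretch of AOC2 (positions 326 to 398), where capitals mark the 3 bases that differ.
AOC1: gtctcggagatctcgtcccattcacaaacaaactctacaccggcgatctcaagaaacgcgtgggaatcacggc
AOC2: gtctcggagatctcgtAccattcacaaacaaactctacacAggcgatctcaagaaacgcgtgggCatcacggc
AOC3: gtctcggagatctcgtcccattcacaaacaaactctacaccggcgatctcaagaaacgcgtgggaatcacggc
By its own bases, a read lying wholly within this stretch cannot be assigned to AOC1 or AOC3. The same goes for a read within the window shared by AOC2 and AOC3. The separate cyclase values are uncertain to that extent, and exon parts outside the coding sequence were not compared. LOX3 and LOX4 were identical at 80.6% of aligned coding bases and shared no window of 50 bases, as was the case for every other pair of the 4 lipoxygenases, at 57.6% to 59.3%.

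OPR3 (AT2G06050, chr2:2359114-2362375), the peroxisomal reductase that acts on OPDA, rose over both steps. Its libraries measured 144, 101 and 139 CPM in Alternaria leaves, 61.7, 72.0 and 68.6 CPM in mock leaves and 38.2, 30.7 and 48.2 CPM in untreated leaves. The groups did not overlap. OPR3 was 1.90-fold higher in Alternaria than in mock leaves (0.93 ± 0.15, edgeR adjusted p = 0.000231) and 1.73-fold higher in mock than in untreated leaves (0.79 ± 0.16, adjusted p = 0.00302).

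JAR1 (AT2G46370, chr2:19033586-19036683), which makes the active isoleucine conjugate, changed little in all 3 comparisons. It had 70.7, 73.8 and 81.6 CPM in Alternaria libraries, 62.9, 58.1 and 65.0 CPM in mock libraries and 97.2, 78.3 and 67.2 CPM in untreated libraries. Mock libraries were lowest without overlap, and untreated libraries were spread widely. The fall in mock against untreated leaves was small (-0.38 ± 0.12, edgeR adjusted p = 0.0256), and it did not pass without untreated replicate 1 (-0.23, adjusted p = 0.0844), without untreated replicate 2 (adjusted p = 0.0541), or without mock replicate 1 (0.0562), 2 (0.102) or 3 (0.0515). Alternaria against mock gave 0.28 ± 0.11 (edgeR adjusted p = 0.0538). That value passed in the fit of those 6 libraries (0.0122), with no filter on low counts (0.0392) and without untreated replicate 1 (0.0108) or 3 (0.0237), and in the authors' deposited table (adjusted p = 0.00677). Against untreated leaves the change was -0.10 ± 0.11 (edgeR adjusted p = 0.452), and upper-quartile scaling gave -0.30 (adjusted p = 0.0229).

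**Figure D3:**
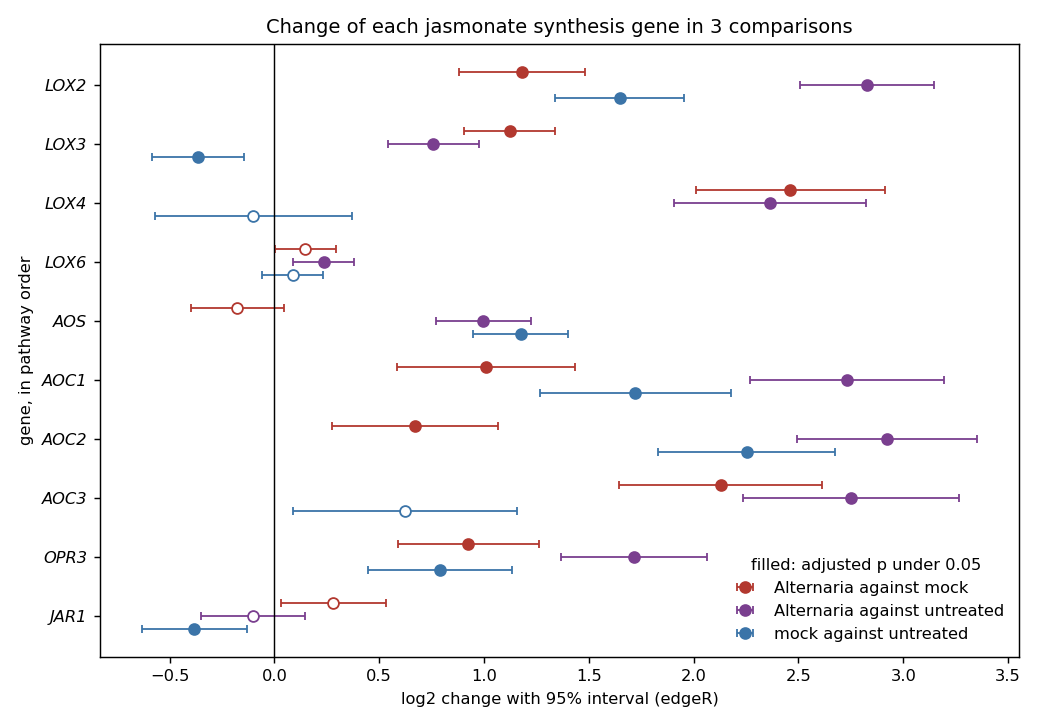
Log2 change of each gene with its 95% interval from edgeR in the 3 comparisons, genes in pathway order, filled where the Benjamini-Hochberg adjusted p is under 0.05. LOX4 and AOC3 change most in Alternaria against mock leaves (2.46 and 2.13), AOC2 and AOC1 most in mock against untreated leaves (2.25 and 1.72), and JAR1 lies between -0.38 and 0.28.

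Whether the signed log2 change from mock to Alternaria leaves differed from that from untreated to mock leaves was tested as 1 contrast in the same fit. Where the 2 changes have opposite signs, the difference does not compare their sizes. That was so for JAR1 (0.28 and -0.38), LOX3 (1.12 and -0.36), LOX4 (2.46 and -0.10) and AOS (-0.18 and 1.17). This test was added after the values had been seen. It was called for 6 of 10 members, 4 above 0 and 2 below 0, where 35.3% of all genes were called in either direction. Shares of all genes above and below 0 were not computed, so the split of the members has no background. The difference was above 0 for LOX4 (difference 2.56 ± 0.38, edgeR adjusted p = 0.000282), LOX3 (1.49 ± 0.18, adjusted p = 6.9e-05), AOC3 (1.504 ± 0.41, adjusted p = 0.0125) and JAR1 (0.66 ± 0.20, adjusted p = 0.0219). It was below 0 for AOC2 (-1.58 ± 0.31, edgeR adjusted p = 0.00185) and AOS (-1.35 ± 0.17, adjusted p = 0.000108). The call was lost for AOC3 without mock replicate 3 (adjusted p = 0.0702) and for JAR1 without mock replicate 1 (0.0625) or 2 (0.112).

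LOX2, AOC1, OPR3 and LOX6 did not pass this test. Their differences were -0.47 (95% interval -0.98 to 0.05), -0.71 (-1.45 to 0.03), 0.13 (-0.45 to 0.72) and 0.06 (-0.19 to 0.31). Mock replicate 1 weighed on the first pair, since without it LOX2 gave -0.80 (edgeR adjusted p = 0.011) and AOC1 -1.13 (adjusted p = 0.0183). AOC1 also passed without untreated replicate 3 (-0.995, adjusted p = 0.0212), and LOX2 under upper-quartile scaling (-0.62, adjusted p = 0.0498).

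Summed by step and per kb of exon, the order of levels was lipoxygenases, cyclases, AOS, OPR3 and JAR1 in Alternaria leaves, at 592 ± 57.0, 315 ± 1.70, 129 ± 14.3, 75.0 ± 13.6 and 27.7 ± 2.06 CPM per kb (AOC1 to AOC3 for the cyclases). In mock leaves the same steps held 267 ± 48.5, 178 ± 44.2, 146 ± 15.8, 39.5 ± 3.07 and 22.8 ± 1.31 CPM per kb, and the ranges of the cyclases (128 to 213) and AOS (136 to 164) overlapped. In untreated leaves AOS was at 64.8 ± 5.93 CPM per kb (61.3 to 71.6) and AOC1 to AOC3 at 43.5 ± 10.6, but with AOC4 the cyclase sum (49.1 to 71.1) overlapped AOS. There OPR3 (18.0 to 28.3 CPM per kb) overlapped JAR1 (24.7 to 35.7) below a lipoxygenase sum of 108 ± 9.84 CPM per kb.

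Libraries of the same group differed from each other in ways that ran across several members. Alternaria replicate 2 was the lowest of its group for 7 of 10 members, mock replicate 1 for 6 and untreated replicate 2 for 7. Taking each library's deviation from its group mean of log2 CPM, Pearson's r between members had a median of 0.305 over 45 pairs and ranged between -0.533 and 0.929 (9 libraries, 3 of them in each group, no test). It was highest for LOX4 and OPR3 (0.929), LOX2 and AOC2 (0.911), AOC1 and AOC2 (0.867) and LOX3 and AOC3 (0.855). No such order or r was computed over all genes, so neither can be called particular to these members.

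**Figure D4:**
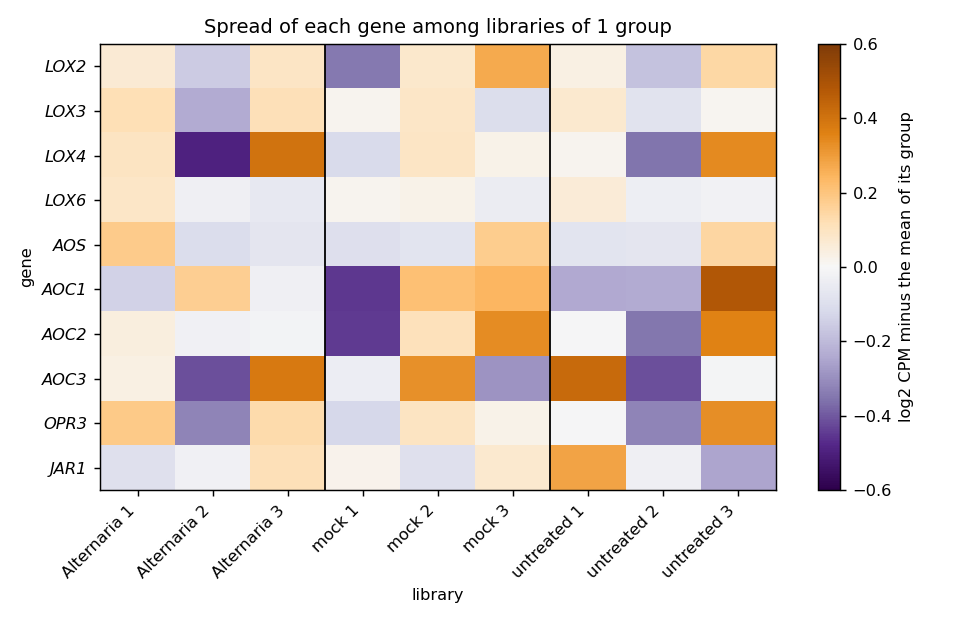
Log2 CPM of each gene in each library minus the mean of its group, from low (purple) to high (orange). LOX2, AOC1 and AOC2 are low together in mock replicate 1, and LOX3, LOX4, AOC3 and OPR3 are low together in Alternaria replicate 2.

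Over the 9 libraries, each of 14629 other nuclear genes with a mean of at least 5 CPM was ranked by Pearson's r of log2 CPM with each member. Such values describe a likeness and carry no test, since the libraries fall in 3 groups and many genes share that pattern. Only the first gene of each member is named, so no shared theme can be read from these names. Most like LOX2 was AT1G64710, of the alcohol dehydrogenase family in RefSeq (r = 0.995). For LOX4 the nearest was TIFY7 (AT1G70700, r = 0.995), and for AOC3 the bHLH gene AT4G16430, with JAM3 among its RefSeq synonyms (0.997). AT1G02300 was nearest to AOC1 (0.996) and AT1G32580 to AOC2 (0.993). The nearest gene to LOX3 was AT1G76510 (0.994), to AOS AT4G18440 (0.993), to OPR3 AT1G64850 (0.993) and to LOX6 AT5G63460 (0.979). JAR1 had the weakest best match, with AT1G19650 (0.955).

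Around these 10 genes, 32 others of the pathway were listed, of which 31 could be tested. In Alternaria against mock leaves 13 of them rose and 7 fell, median log2 change 0.20, where 29.5% of all genes were higher and 26.1% lower. The lists are named by what their genes do, and up to 2 genes of each were to be named, those called with the largest change in this comparison. Any others below were named after their values were seen.

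Among 8 genes that supply linolenic acid, of which 7 were tested, 3 rose and 2 fell in Alternaria against mock leaves, a split near that of all genes (29.5% higher, 26.1% lower). The risers included 2 hydrolase genes without a symbol in the reference, AT1G02660 (19.2 ± 3.56 CPM in Alternaria leaves, against 3.32 ± 0.153 CPM in mock, log2 change 2.53 ± 0.17, edgeR adjusted p = 9.74e-08) and AT3G62590 (9.80 ± 2.14 against 3.16 ± 0.614 CPM, 1.64 ± 0.21, adjusted p = 2.12e-05). The third, the plastid lipase gene PLA-Iγ1 (0.63 ± 0.16, edgeR adjusted p = 0.00548), overlaps neighbouring genes over 1471 bases. The genes that fell were FAD7 (-0.63 ± 0.07, adjusted p = 5.07e-06) and FAD8 (-1.02 ± 0.07, adjusted p = 8.31e-08), plastid desaturases that make the linolenic acid. AT3G62590 overlaps neighbours over 394 bases and FAD8 over 61 bases, so their reads are uncertain where strands were not separated. DAD1, a lipase gene known from flowers, had 0 to 4 reads per library and was not tested. In mock against untreated leaves FAD3, FAD7 and FAD8 fell and the other 4 tested genes did not pass, where 15.1% of all genes were higher and 14.1% lower.

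LOX1 and LOX5, lipoxygenases of the other positional class, HPL1, a hydroperoxide lyase gene known to be non-functional in Col-0, and AOC4 did not pass edgeR's test in Alternaria against mock leaves. Unadjusted p was 0.0381 for LOX1 and 0.0392 for AOC4, and higher for the other genes. AOC4 rose in mock against untreated leaves (0.61 ± 0.10, edgeR adjusted p = 0.000764). OPR1 and OPR2, reductases that are not needed for jasmonate, did not pass in any of the 3 comparisons, with an unadjusted p of 0.0589 as the lowest (OPR1, mock against untreated). They overlap each other over 216 bases and share 84 coding windows of 50 bases, so their separate values are uncertain.

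Of the 8 genes that shorten the side chain in the peroxisome, 5 rose and 2 fell in Alternaria against mock leaves, and 5 rose and 0 fell in mock against untreated leaves. Over all genes 29.5% were higher and 26.1% lower in Alternaria against mock leaves, and 15.1% and 14.1% in mock against untreated leaves. The thiolase gene KAT2 stood at 371 ± 53.0 CPM in Alternaria, 134 ± 6.21 CPM in mock and 109 ± 3.36 CPM in untreated leaves, and rose by 1.47 ± 0.10 on the log2 scale over mock (edgeR adjusted p = 8.88e-08). OPCL1, the ligase that activates the OPR3 product, stood at 145 ± 25.3 CPM in Alternaria, 59.9 ± 3.25 CPM in mock and 43.5 ± 5.61 CPM in untreated leaves and rose by 1.27 ± 0.12 (adjusted p = 2.35e-06). The other risers were ACX1 (1.204), MFP2 (0.91) and AIM1 (0.63), and the genes that fell were the thiolase genes KAT1 (-0.36) and KAT5 (-0.89), of which KAT5 overlaps a neighbour over 160 bases. ACX5 measured 0.01 ± 0.11 (edgeR adjusted p = 0.954).

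Among 3 transport genes, CTS, which brings OPDA into the peroxisome, was higher in Alternaria than in mock leaves (0.23 ± 0.06, edgeR adjusted p = 0.00772). The same was true of AT1G70480 (0.50 ± 0.10, adjusted p = 0.00103), which had fallen in mock against untreated leaves (-0.84 ± 0.10, adjusted p = 0.000117) and overlaps a neighbour over 235 bases. JAT1, a jasmonate transporter gene, averaged 0.782 ± 0.145 CPM in Alternaria libraries, all of which lay below the mock libraries at 1.19 ± 0.186 CPM, and its change of -0.61 ± 0.26 did not pass (edgeR adjusted p = 0.0671). GH3.10, a relative of JAR1 that RefSeq lists as DFL2 and that overlaps a neighbour over 432 bases, was at 42.5 ± 4.92 CPM in Alternaria, 52.0 ± 2.87 CPM in mock and 73.2 ± 1.57 CPM in untreated leaves, and it fell in both comparisons (-0.29 ± 0.09 against mock, edgeR adjusted p = 0.0118, and -0.49 ± 0.09 for mock against untreated, adjusted p = 0.00127).

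The receptor gene COI1 and 5 genes of factors that act on synthesis genes made up the last list, of which 3 rose and 2 fell in Alternaria against mock leaves (29.5% and 26.1% of all genes). ORA47, a factor that switches on many jasmonate synthesis genes, was at 6.30 ± 1.53 CPM in Alternaria, 1.40 ± 0.424 CPM in mock and 3.90 ± 1.799 CPM in untreated leaves. It rose over mock by 2.16 ± 0.32 (edgeR adjusted p = 9.37e-05) and fell in mock against untreated leaves (-1.47 ± 0.33, adjusted p = 0.00647), at a low level throughout. Alternaria and untreated libraries overlapped for ORA47, and its change of 0.69 ± 0.30 between them did not pass (edgeR adjusted p = 0.0592). ORA47 also overlaps a neighbour over 102 bases. MYC4 fell in both comparisons (-0.84 ± 0.10 against mock, edgeR adjusted p = 1.66e-05, and -0.67 ± 0.10 for mock against untreated, adjusted p = 0.000528). The other risers over mock were MYC2 (0.74), which lies opposite another gene over 3241 bases, and MYC3 (0.46), while TCP4, a leaf growth factor known to act on LOX2, fell (-0.63). COI1 measured 0.20 ± 0.08 (edgeR adjusted p = 0.0557).

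**Figure D5:**
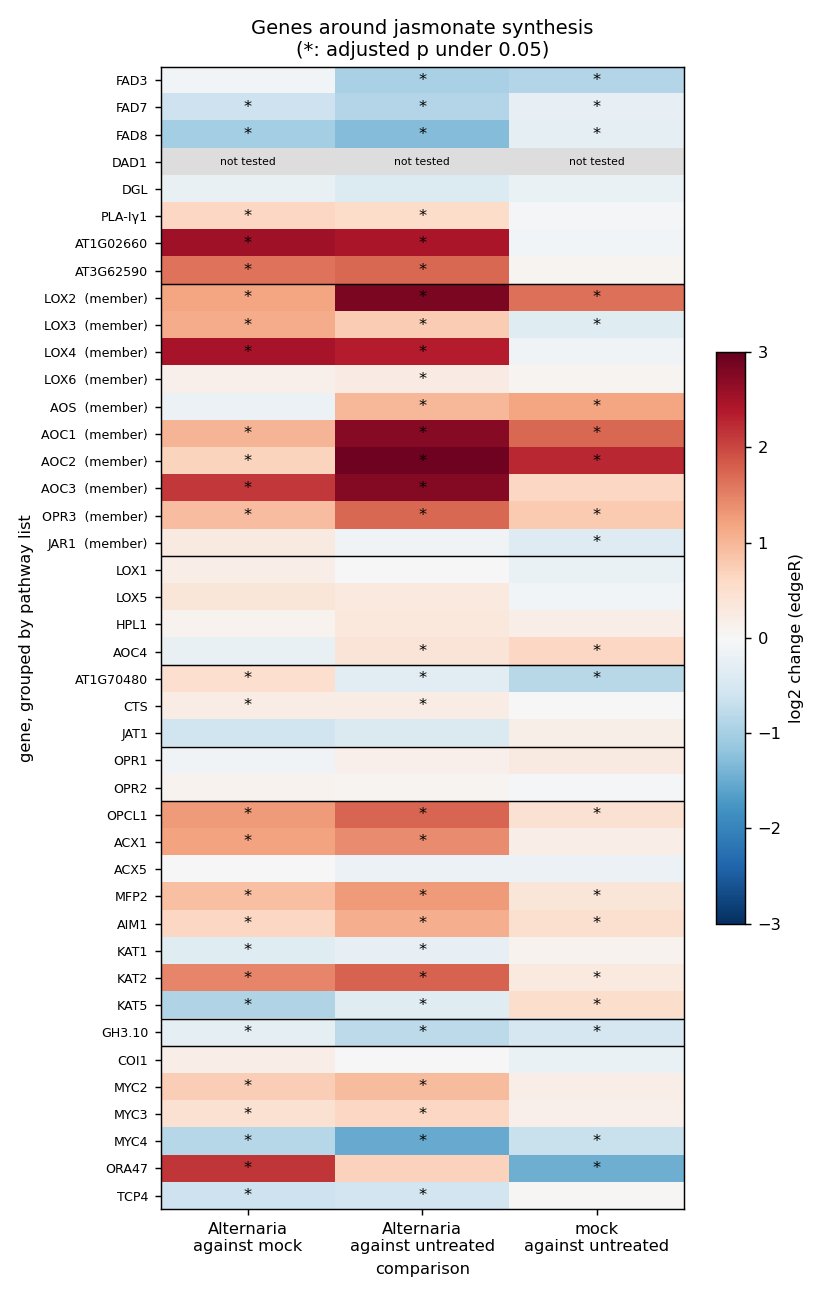
Log2 change of the 10 genes and 32 others of the pathway in the 3 comparisons (red higher, blue lower, grey not tested), with a star where edgeR's adjusted p is under 0.05. In Alternaria against mock leaves 7 of 10 members and 13 of 31 other tested genes are higher (29.5% of all genes), and the desaturase genes FAD7 and FAD8 are lower in all 3 comparisons.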

How the data were processed

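FastQC, TopHat2 2.0.12 (genome TAIR10), HTSeq and DESeq2 1.8.2 are named in the submitters' processing notes. For HTSeq, the version, strand setting and annotation release are not given in the sources used. The authors deposited raw counts for every gene of each library. Their comparison tables give, per the file headers, log2 fold changes, p-values and adjusted p-values, and the sign, checked against the counts, is positive where the group named second is higher.

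Lines that name no gene (7.73 to 11.2% of counts) were dropped. Genes passing edgeR's filterByExpr (minimum count 10) numbered 22019. All 9 libraries, scaled by TMM, entered 1 quasi-likelihood model with a mean for each group (edgeR 4.0.16, R 4.3.3, 6 residual degrees of freedom), with Benjamini-Hochberg adjustment over all genes and a threshold of 0.05. SE equals the log2 change over the root of the F statistic. The test was also run on simulated data, with 67 genes changed 1.5-fold, 67 changed 2-fold and 66 changed 4-fold per comparison. These are far fewer than the genes called in the real data, so the rates need not hold there. On simulated data for Alternaria against mock (21680 genes), recovery was 47.8% at 1.5-fold and 89.6% at 2-fold, and 4.24% of calls were false. For Alternaria against untreated (21718 genes) recovery was 59.7% and 83.6% with 6.4% false calls, above the 5% aimed at, and for mock against untreated (21704 genes) 55.2% and 88.1% with 3.01% false calls.

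The members, lists and tests were chosen with earlier results of these data known. The naming rule took the 10 members whatever their p, up to 2 genes per pathway list and the 3 genes most like each member. Of those 3 only the first is named. Positions, exon lengths and sequences are RefSeq's for TAIR10.1. Coding sequences were aligned with Biopython 1.88. Alternatives were RLE and upper-quartile scaling, no filter, DESeq2 1.42.0, fits of 6 libraries, a replicate block, removal of organelle genes, and removal of single libraries.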

Additional observations from a re-analysis of the deposited data

How the results depend on the processing

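No value that passed its test changed sign under any alternative run. Of 480 log2 changes recomputed, 460 kept their side of the threshold, 7 lost it and 13 gained it, all for LOX3, LOX6, AOS, AOC3 or JAR1. Of 150 step differences 143 kept their side, and all 63 family share differences moved by less than the spread between replicates, divided by length or not. With the replicate block no member's call changed in any of the 3 comparisons. Over all genes the block gave 11940 calls in Alternaria against mock leaves, against 12241 without it. The numbers did not pair the libraries: same-numbered libraries had r of -0.0652 to 0.0341 in their deviations, and 0 of 9 libraries correlated best with its own number. Upper-quartile scaling turned the split of all genes in Alternaria against mock to 4937 higher and 8114 lower, against 6489 and 5752, and in Alternaria against untreated to 5549 and 9234, against 7287 and 7001. It moved the median of all genes by -0.175 and -0.196. Leaving out 1 library gave 7 to 8, 9 and 5 to 8 members called in the 3 comparisons. Over all genes, these fits gave 10824 to 12570 calls in Alternaria against mock, against 12241 with all libraries. Alternaria against untreated gave 12972 to 14286 (14288 with all libraries) and mock against untreated 4343 to 6644 (6442 with all libraries).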
